A study of Mus musculus with 4 samples.

Results

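The yolk-sac-only promoters are the regions of transcription initiation at 1153 of the 21951 mouse protein-coding genes of the GENCODE M21 annotation. A gene was a member when a peak overlapped the 500 bp on either side of any of its annotated transcript starts in each yolk sac library while no peak of either liver list did so. Members were therefore chosen on the calls themselves, and the calls, scores and widths given for them are descriptions with no test. They made up 5.25% of coding genes and 8.49% of the 13585 coding genes called in both yolk sac libraries. Their promoters held 1274 of the 50525 peaks of yolk sac library 1 and 1232 of the 43055 peaks of library 2. By the same rule with the tissues exchanged, 222 genes (1.01%) were liver-only, 11805 were called in all 4 libraries and 7514 in none.

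The data are PRO-seq libraries, in which RNA polymerases that are engaged on DNA extend their nascent RNA in a run-on reaction. Livers and yolk sacs of E14.5 mouse embryos were used, with 2 libraries per tissue. All 4 libraries shared the same cross. C57BL/6J mothers were mated with fathers of mixed C57BL/6J and CAST/EiJ background that carried only CAST/EiJ variants at an imprinted cluster on chromosome 12, and the strain label of the samples reads mixed C57BL/6h and CAST/EiJ. Tissue of 6 embryos was pooled for each library, and the run-on was done on isolated chromatin with no treatment. The deposited values are lists of dREG peaks. dREG is a classifier that finds places where transcription starts in both directions, at promoters and enhancers, from the shape of the run-on signal, and it gives each peak a score without a unit. The lowest score was 0.80 in each list. The depth of the libraries is unknown, since the lists carry no read counts. The liver lists held 24863 and 24333 peaks, about as many as each other and fewer than either yolk sac list.

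The yolk sac surrounds the embryo and serves it as an organ of uptake and exchange. Its visceral endoderm takes up protein, lipid and vitamins through endocytic receptors and carriers, and its mesodermal layer holds mesenchyme, vessels, blood islands and a covering of mesothelium. Promoters that lie in CpG islands are commonly active in many tissues, while genes with restricted expression more often start from CpG-poor promoters.

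The difference in list length bore directly on membership. When each list was reduced to its 24333 highest-scoring peaks, 572 genes were yolk-sac-only, or 2.61%, and 660 were liver-only, or 3.01%. Of those 572 genes, 567 were members, 49.2% of the 1153. The direction of the imbalance between the tissues thus reversed at equal length, and under no other setting that was tried. When only the higher-scoring 50% of each list was kept, 1941 genes met the rule and 541 of them were members, while 289 genes were liver-only. A total of 380 members (33.0%) met the rule under every setting that was tried. In bulk tissue, a missing call from fewer cells of a type and one from less RNA synthesis per cell cannot be told apart.

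The promoter sequences of 8 members show the range of starts in this set. A stretch was used only where the RefSeq start lay inside the peak of both yolk sac libraries and it held at most 1 annotated exon base. Among the genes that passed, they are the 6 leading genes of highest rank and the visceral endoderm genes Amn and Cubn. Ctsk, Nek5, S100b, Gramd2, Acta1 and Slc30a2 ranked 2, 4, 5, 7, 17 and 19 among all members. Each line gives the 100 bases before the RefSeq start, 5′ to 3′ on the strand of the gene, from the GRCm38.p6 promoter table. Capitals mark matches to the motifs that are listed with the sequence results below. For the TATA box in these lines the GENCODE start nearest the peak was also allowed, so the match in Acta1 is not among those counted there.
Ctsk: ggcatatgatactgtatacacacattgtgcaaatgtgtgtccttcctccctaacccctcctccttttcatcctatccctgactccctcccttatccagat
Nek5: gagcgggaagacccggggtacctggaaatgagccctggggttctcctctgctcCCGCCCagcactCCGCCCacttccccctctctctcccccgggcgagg
S100b: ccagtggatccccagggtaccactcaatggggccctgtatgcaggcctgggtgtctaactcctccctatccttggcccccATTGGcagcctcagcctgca
Gramd2: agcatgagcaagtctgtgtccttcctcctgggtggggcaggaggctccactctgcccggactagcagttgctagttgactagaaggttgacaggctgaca
Acta1: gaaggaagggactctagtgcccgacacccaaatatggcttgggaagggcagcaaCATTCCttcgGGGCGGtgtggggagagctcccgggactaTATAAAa
Slc30a2: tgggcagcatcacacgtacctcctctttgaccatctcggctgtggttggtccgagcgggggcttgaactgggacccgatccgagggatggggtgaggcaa
Amn: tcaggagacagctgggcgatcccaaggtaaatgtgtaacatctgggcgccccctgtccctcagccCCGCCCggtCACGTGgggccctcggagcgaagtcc
Cubn: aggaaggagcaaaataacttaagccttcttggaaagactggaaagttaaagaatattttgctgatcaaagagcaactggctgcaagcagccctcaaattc

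The stretch of Ctsk is chr3:95499110-95499209 on the plus strand, that of Nek5 is chr8:22125068-22125167 on the minus strand and that of S100b is chr10:76253736-76253835 on the plus strand. The stretch of Gramd2 is chr9:59707537-59707636 on the plus strand, that of Acta1 is chr8:123894776-123894875 on the minus strand and that of Slc30a2 is chr4:134343366-134343465 on the plus strand. The stretch of Amn is chr12:111270996-111271095 on the plus strand and that of Cubn is chr2:13491877-13491976 on the minus strand. Ctsk, S100b and Cubn had 0 CpG dinucleotides in these 100 bases, Gramd2 had 1, Acta1 had 4, Nek5 and Slc30a2 had 6 each, and Amn had 7. Nek5 held the GC box CCGCCC at 47 and 35 bases before the start, and S100b held ATTGG, the CCAAT box on the other strand, at 20 bases before it. Amn held CCGCCC at 35 bases and the E-box CACGTG at 26 bases before the start. Acta1 held the TEAD motif CATTCC, a GC box at 36 bases before the start and a TATA box. Its TATA box began 7 bases before the RefSeq start and 31 bases before the GENCODE start nearest the peak, which lies 24 bases downstream. The stretches of Ctsk, Gramd2, Slc30a2 and Cubn held none of the motifs.

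The scores of the members covered nearly the whole range of the lists. To compare libraries, each score was turned into its percentile within its own list, and a gene was ranked by the lower of its 2 yolk sac percentiles. The median percentile of the members was 60.3 in yolk sac library 1 and 52.4 in library 2. The lower percentile had a median of 47.1, with quartiles of 26.4 and 69.9 and a range from 0.00891 to 99.7. For the genes called in all 4 libraries, ranked in the same yolk sac lists, the median was 67.3 and the quartiles were 55.9 and 79.9. Among promoter peaks alone the median lower percentile was 18.7 for members and 47.5 for the genes called in all 4 libraries. Yolk-sac-only promoters were thus mostly peaks of middle or low score, with a tail of high ones.

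A total of 541 members (46.9%) lay above percentile 50 in both yolk sac lists, against 85.7% of the genes called in all 4 libraries. Above percentile 90 the shares were closer, with 75 members (6.50%) against 9.44%, and 31 members (2.69%) against 3.54% lay above percentile 95. At the low end, 94 members (8.15%) lay below percentile 25 in both lists, against 0.254%. The gap between a gene's percentiles in the yolk sac libraries had a median of 11.7 for members and 7.39 for the genes called in all 4 libraries. The widest gap among members was 87.4. Members below percentile 10 in at least 1 list numbered 95, and 0 of them met the rule at equal list length. All 75 members above percentile 90 in both lists met it. Both outcomes were fixed by the percentiles, since the cut kept the highest-scoring peaks of each list.

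**Figure D1:**
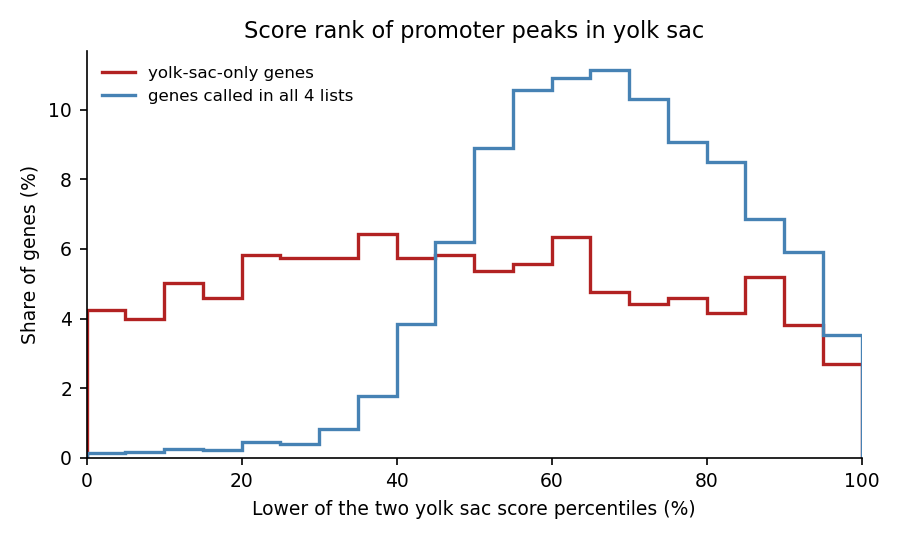
Share of genes (%) by the lower of the yolk sac score percentiles, in bins of 5, for the 1153 yolk-sac-only genes and the 11805 genes called in all 4 lists. Members spread over the whole range, with 4.25% in the lowest bin, where the genes called in all 4 lists have 0.136%.

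**Figure D2:**
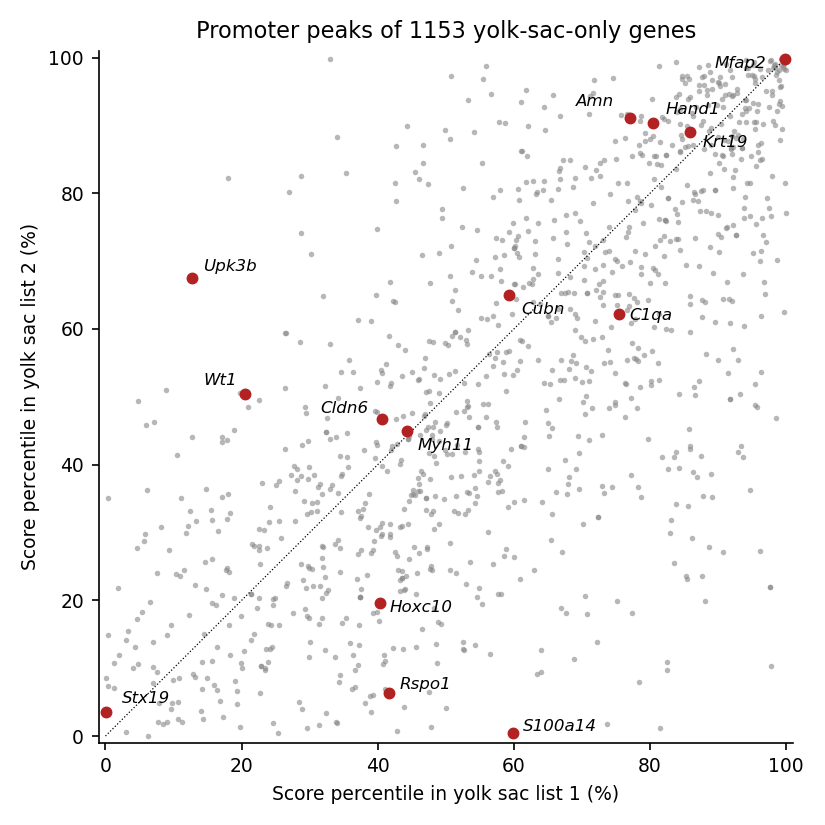
Score percentile of the best promoter peak in yolk sac list 1 (x axis, %) and list 2 (y axis, %), 1 point per member, with the diagonal dotted and some named genes in red. Mfap2 lies at the top in both lists, Amn, Hand1 and Krt19 lie high in both, and S100a14, Rspo1, Wt1 and Upk3b lie far from the diagonal.

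Peaks were wider in members of higher rank, up to percentile 95. The median promoter peak of a member was 1102 bp wide in yolk sac library 1 and 902 bp in library 2, against 1752 and 1602 bp for the genes called in all 4 libraries. Members with a lower percentile under 10 had a median width of 327 bp, and those between 90 and 95 had 1489.5 bp. The widest was Hand1, a bHLH factor of extraembryonic mesoderm and trophoblast, with 5402 bp in library 1 and 5302 bp in library 2. Spaar (4852 and 4502 bp), Krt7 (4852 and 4802 bp), Efna5 (4552 and 4602 bp) and Inava (4452 and 4402 bp) followed. The score of Hand1 was 1.17 in library 1 and 1.21 in library 2, so the widest peak was not among the highest in score. The narrowest, with 102 bp in both lists, were Fgf22, Ppm1j, Fam19a5, Pde1b and Mall.

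The leading genes had many different functions, and no theme among them was tested. Mfap2, a microfibril protein of elastic fibres, ranked first, with a score of 1.36 in yolk sac library 1 and 1.33 in library 2, or percentiles of 99.8 and 99.7. Ctsk, the collagen-degrading cathepsin K, scored 1.37 and 1.33, or percentiles of 99.9 and 99.7. Srpx, a sushi-repeat protein gene on chromosome X, had percentiles of 99.5 and 99.9, and Nek5, a NIMA-related kinase, had 99.3 and 99.8. S100b, a calcium-binding protein best known from glia, had 99.6 and 99.0. These 5 were the only members above percentile 99 in both lists.

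Amhr2, the receptor of anti-Müllerian hormone, had percentiles of 99.2 in library 1 and 99.0 in library 2. Its peak lay at an internal start, 6792 bp downstream of the 5′-most annotated start, and a liver peak lay 657 bp from one of its starts. Gramd2 (99.5 and 98.6) was likewise marked at an internal start, 27493 bp downstream. Adam33, a membrane metalloproteinase, had 98.4 and 99.0. Il11, an interleukin of the IL-6 family, had 98.9 and 98.2, with a liver peak 742 bp from a start. Both Amhr2 and Il11 left the set with a window of 250 or 1000 bp, and when peak midpoints had to lie inside the window. Nbl1, a secreted BMP antagonist, had 98.0 and 98.5. Acta1, the skeletal muscle alpha-actin, had 97.7 and 99.5.

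Piwil4, an Argonaute protein of the piRNA pathway, had percentiles of 98.4 in library 1 and 98.6 in library 2, at an internal start 22260 bp downstream of the 5′-most one. Txndc2, a thioredoxin-domain protein of sperm, had 99.7 and 98.4. Terb1, a meiotic telomere protein, had 98.2 and 99.0, but a liver peak lay only 530 bp from a start and the gene left the set when the window was widened to 1000 bp. Adam5, a sperm-surface protein, had 99.2 and 95.8. A call marks initiation near an annotated start, and the lists hold no value for the rest of the transcript.

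Slc41a2, a magnesium transporter, had percentiles of 98.6 and 97.8, and Trpm6, an epithelial magnesium channel, had 99.1 and 95.7. Slc30a2, a zinc exporter, had 97.3 and 98.2, and Slc9a3, an apical sodium-proton exchanger, had 95.4 and 96.8. Myo7b, a myosin of the microvilli of brush borders, had 94.9 and 97.4. Lad1, a basement-membrane anchoring protein, had 96.5 and 97.2, with a peak of 3702 bp in library 1 and 3602 bp in library 2. Esx1, an X-linked homeobox gene known from extraembryonic tissue, had 95.5 and 96.2. Each of these 7 genes lay above percentile 94 in both yolk sac libraries.

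The other leading genes by the naming rule were Brd3os, Shisa4, Fndc7, Alkal2, Fsbp, Spaar, Fam178b and Cd101. Across the 30 leading genes the lowest percentile in either list was 94.5, so all 30 met the rule at equal list length by construction. Of the 30, 19 met it under every setting. A total of 8 were marked at an internal start, namely Amhr2, Gramd2, Piwil4, Il11, Fndc7, Esx1, Fam178b and Cd101. For 4 a liver peak lay within 1000 bp of a start, namely Amhr2, Terb1, Il11 and Fndc7.

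At the other end, the members just inside the rule were Stx19 (percentile 0.00891 in library 1 and 3.61 in library 2), Spats1 (6.32 and 0.0383), Mall (0.0386 and 8.62), Snx31 (0.315 and 35.0) and Col19a1 (0.343 and 14.9). Their lower scores were all 0.80, at the floor of the lists. Just outside the rule were genes called in both yolk sac lists and in 1 liver list at the floor of its scores. Sgcd, a sarcoglycan of the muscle membrane, had yolk sac percentiles of 97.8 and 94.6 and was kept out by a liver peak in library 2 with a score of 0.80. Loxl4, a lysyl oxidase, had 89.4 and 96.6 and was kept out in the same way. C5ar1, Tnfsf13 and Kcnn3 followed, each with a liver score of 0.80. In all, 627 genes were called in both yolk sac lists and 1 liver list, and 385 in 1 yolk sac list and no liver list. By distance, the members closest to exclusion were Dmpk, with a liver peak 505 bp from a start, Slc17a4 (516 bp), Podxl2 (518 bp), Adcy1 (519 bp) and Zkscan7 (519 bp).

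Gene functions were described with 48 lists of gene families, of which 46 held a member, and 339 members (29.4%) were in a list. The share of yolk-sac-only genes in a list is read beside 5.25% over all coding genes, and beside 2.61% where the lists were cut to equal length. Counts under other settings are read beside the whole set, which had 1153 genes as deposited. It had 1941 with the higher-scoring 50%, 1277 with midpoints, and 1291 and 1642 without liver replicates 1 and 2. Without yolk sac replicates 1 and 2 it had 1245 and 1446. The share of members was above 5.25% in 38 of the 48 lists. This count is a description, since the lists were chosen with earlier results of these data known. The 5.25% also takes in 1466 olfactory and vomeronasal receptor genes, with 1 member. At equal length, among the 36 lists with at least 3 members, some lay below 2.61%. These were zinc finger, serpin, P450, conjugating enzyme, forkhead, Wnt, fibroblast growth factor and MHC genes. A family whose genes are mostly called in no list cannot have a high share. For some lists the share among family genes called in both yolk sac lists is therefore given, beside 8.49% over all such genes.

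Extracellular matrix lists differed widely in their shares. The elastic fibre and microfibril list, which holds Mfap2, had 2 of 25 genes (8%), with 12 called in all 4 libraries. Among small leucine-rich proteoglycans, which bind collagen fibrils, 6 of 14 genes (42.9%) were yolk-sac-only, namely Ogn, Fmod, Omd, Chad, Bgn and Podn, and 0 were called in all 4 libraries. Ogn (osteoglycin) had percentiles of 92.8 in library 1 and 94.8 in library 2, Fmod (fibromodulin) had 85.4 and 89.9, and Omd (osteomodulin) had 84.6 and 88.0. Chad (chondroadherin) was lower, with 42.2 and 64.1, and its peak also touched another coding gene. At equal length 4 of the 14 genes (28.6%) met the rule, 3 of them members, and with peak midpoints inside the window 3 did.

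Of the 44 collagen genes, 11 (25%) were yolk-sac-only, 14 were called in all 4 libraries and 0 were liver-only. Col8a2 had percentiles of 98.1 and 90.7, from peaks 13548 bp apart at different starts, and Col9a2 had 95.6 and 90.5, Col6a1 had 93.8 and 77.8, and Col24a1 had 71.3 and 82.2. The others were Col2a1, Col4a5, Col26a1, Col4a6, Col5a3, Col13a1 and Col19a1. Col4a5 and Col4a6 encode basement-membrane chains, and Col2a1 and Col9a2 are best known from cartilage. Equal list length left 6 collagens (13.6%), and 7 met the rule with peak midpoints inside the window. Among laminins and other basement-membrane genes 4 of 15 (26.7%) were yolk-sac-only, and the count was also 4 at equal length. They included Lama3 (90.9 and 87.9), Lama5 (61.3 and 66.2) and Lama2 (61.6 and 46.3).

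Metalloproteinases of the ADAMTS and MMP families and their inhibitors had 6 of 50 genes (12.0%). At equal length 6 met the rule, 5 of them members, without liver replicate 2 the count was 11, and with the higher-scoring 50% it was 16. Adamts8 led with percentiles of 95.1 and 93.4, followed by Adamtsl2 (87.1 and 95.1), Adamtsl3 (79.0 and 75.6) and Adamtsl1 (85.9 and 63.7). The median lower percentile of the 6 was 69.6, above the 47.1 of all members. Integrins, the cell-side receptors of matrix, had 3 of 31 genes, 5 without liver replicate 2 and 1 at equal length. Itgb6, an epithelial beta chain, had 96.2 and 84.9 at an internal start, and Itga7 (22.3 and 18.9) and Itga11 (31.3 and 16.5) were low.

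Uptake and transport genes were represented by known receptors of the visceral endoderm. In the list of endocytic receptors and adaptors 4 of 18 genes (22.2%) were yolk-sac-only and 11 were called in all 4 libraries. Amn (amnionless) and Cubn (cubilin) form the receptor complex for intrinsic factor and many proteins. Amn had percentiles of 77.0 in library 1 and 91.0 in library 2, and Cubn had 59.3 and 65.0. Both met the rule under every setting. The scavenger receptors Stab1 (34.8 and 38.7) and Cd36 (56.2 and 30.1) were lower, and neither met it at equal length. The nearest liver peak lay 95727 bp from a start of Amn and 30238 bp from one of Cubn.

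Solute carriers were the largest group after ion channels, with 35 of 385 genes (9.09%), and 217 carriers were called in all 4 libraries. Beside the magnesium, zinc and sodium-proton carriers above, Slc2a7, a hexose transporter, had percentiles of 99.1 and 93.6. Its peak lay nearest to an internal start, 8856 bp downstream of the 5′-most one. Slc2a7 left the set when only starts of protein-coding transcripts were used. Further members included the sugar carriers Slc5a1 and Slc2a5, the peptide carrier Slc15a1 and the amino-acid carrier subunit Slc3a1. The median lower percentile of the 35 was 55.1. At equal length 21 carriers (5.45%) were left, and with the higher-scoring 50% the count was 66. ABC transporters had 4 of 50 genes, and 2 at equal length. Abcc8, the sulfonylurea receptor, had 87.2 and 98.7, and Abca9 had 86.3 and 87.1. The peak of Abcc8 lay nearest to an internal start, 63983 bp downstream of the 5′-most one. Abcc8 left the set when only starts of protein-coding transcripts were used. The sterol exporters Abcg5 and Abcg8 start from one shared region and shared 1 peak, with 32.4 and 44.9. Aquaporins had 0 of 11 genes, and apolipoproteins and fatty-acid-binding proteins had 1 of 36.

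Ion channels were the largest group, with 44 of 247 genes (17.8%), or 40.7% of the 108 channel genes called in both yolk sac lists. After Trpm6 came Scn8a, a voltage-gated sodium channel (94.4 and 97.4), Kcnip2, a potassium channel partner (98.9 and 93.1), and Trpc1, a cation channel, with 88.2 in its lower list. The peak of Scn8a lay at an internal start, 66467 bp downstream of the 5′-most one. The calcium-selective epithelial channels Trpv5 and Trpv6 were both members. At equal length 22 channels (8.91%) were left. Genes of cilia and the axoneme had 15 of 79 (19.0%). Tekt5, a tektin of axonemal microtubules, had 94.3 and 98.4, Cfap53 had 89.6 and 85.7, Rsph1, a radial spoke protein, had 84.0 and 92.0, and Cfap206 had 80.1 and 78.3. The peak of Cfap53 lay nearest to an internal start, 65896 bp downstream of the 5′-most one, and the gene left the set under 3 settings. At equal length 9 of the 79 (11.4%) were left.

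**Figure D3:**
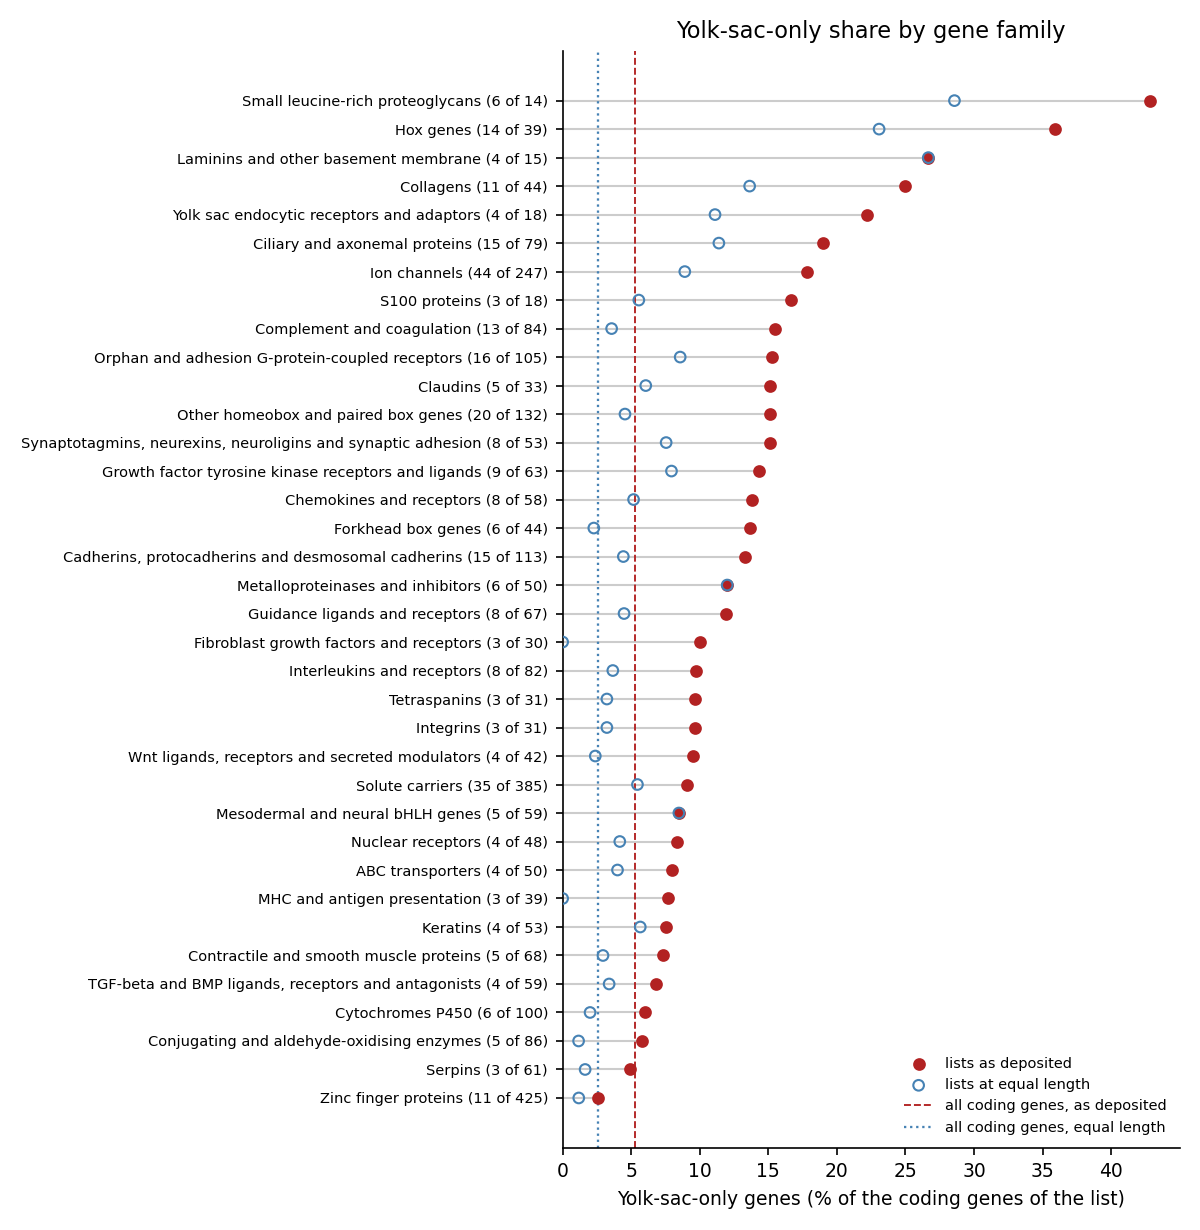
Share of the genes of a family list that are yolk-sac-only (x axis, %), for the 36 lists with at least 3 members, with the lists as deposited (filled) and at equal length (open), and the members of all genes in brackets. The dashed line is 5.25% and the dotted line 2.61%, the shares over all coding genes, and proteoglycans, Hox genes, laminins and collagens lie farthest to the right on the filled scale.

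Claudins, which seal tight junctions, had 5 of 33 genes (15.2%), and 2 at equal length. Cldn2 had percentiles of 88.9 and 89.5, Cldn4 had 68.3 and 62.9, Cldn24 had 47.5 and 58.2, and Cldn6 had 40.7 and 46.7. Keratins had 4 of 53 genes, but 43 keratins were called in no list, and the 4 were 50% of the 8 called in both yolk sac lists. They were Krt19 (85.9 and 89.0), Krt7 (82.1 and 73.7), Krt6a (64.4 and 81.8) and Krt23 (47.8 and 32.7). The peaks of Krt19 and Krt7 lay nearest to internal starts, 2545 and 1406 bp downstream of the 5′-most ones. At equal length 3 keratins were left, and with peak midpoints inside the window 0 of the 53 met the rule. The list of tetraspanins and uroplakins had 3 of 31, 5 without liver replicate 2 and 1 at equal length. The members were Upk1b (70.4 and 58.2), Upk3bl (26.4 and 59.5) and Upk3b (12.7 and 67.6).

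Cadherins and protocadherins had 15 of 113 genes (13.3%), of which 8 were protocadherins, and 5 at equal length. Pcdhga7 led with percentiles of 94.1 and 98.4, followed by Celsr1 (72.7 and 82.5), Fat4 (65.7 and 94.5) and Cdh13 (60.8 and 58.4). A liver peak lay 538 bp from a start of Fat4, and the gene left the set with either other window. The clustered protocadherins share exons, and how their reads were placed was not tested. Guidance genes had 8 of 67, 18 without liver replicate 2, 15 with the higher-scoring 50% and 3 at equal length. Sema3b had 75.8 and 91.6, from peaks that did not overlap and lay 748 bp apart, Plxnb3 had 56.7 and 94.6, Slit3 had 68.1 and 54.1, and Efna5 had 69.5 and 41.7. Synaptic adhesion and synaptotagmin genes had 8 of 53 (15.1%) and 4 at equal length, led by Syt7 (87.0 and 78.9) and Syt8 (74.0 and 71.4).

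Among signalling ligands and receptors, growth factors with tyrosine kinase receptors had 9 of 63 genes (14.3%), 19 without liver replicate 2, 20 with the higher-scoring 50% and 5 at equal length. Gdnf, a neurotrophic ligand of the Ret receptor, had percentiles of 76.7 and 78.8, Nrg1, a ligand of Erbb receptors, had 78.7 and 69.1, Ltk, a receptor kinase, had 62.1 and 74.5, and Angpt4, a ligand of Tek, had 81.2 and 54.9. Alkal2, a ligand of the Alk and Ltk receptors, ranked among the leading genes with 96.1 and 98.2. In the TGF-beta and BMP list 4 of 59 were members, with 7 without liver replicate 2, 11 with the higher-scoring 50% and 2 at equal length. Among them were Tgfb3 (63.5 and 68.1), Bmp6 (44.3 and 89.9) and Inhbb (54.3 and 34.4). In the Wnt list 4 of 42 were members, with 11 without liver replicate 2, 8 with the higher-scoring 50%, 2 with midpoints and 1 at equal length. They were the antagonist Dkk2 (62.8 and 69.0), Wnt6 (85.3 and 23.6), Wnt7b (37.5 and 20.4, from peaks 13298 bp apart) and the agonist Rspo1 (41.7 and 6.31). The fibroblast growth factor list had 3 of 30, Fgfbp1 (21.4 and 14.1), Fgf22 (15.6 and 11.1) and Fgf10 (19.3 and 4.74), 5 without liver replicate 2 and 0 at equal length.

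Immune ligands and receptors were members in small numbers. Chemokines and their receptors had 8 of 58 genes (13.8%) and 3 at equal length, led by Ccl12 (76.5 and 73.5), Ccl24 (80.1 and 52.3) and the scavenging receptor Ackr2 (85.6 and 45.2). Interleukins and receptors had 8 of 82 and 3 at equal length, led by Il11, then the decoy receptor Il1r2 (80.5 and 60.3) and Il6 (71.5 and 48.4). The complement and coagulation list had 13 of 84 (15.5%) and 3 at equal length (3.57%), and its naming pattern also takes in C1q-like proteins outside the cascade. C6 (66.6 and 83.3), C1qa (75.4 and 62.2), C3ar1 (73.0 and 44.3) and the thrombin receptor F2rl3 (85.9 and 42.8) led it, and C1qb and C1qc were members too. Orphan and adhesion G-protein-coupled receptors had 16 of 105 (15.2%) and 9 at equal length, led by Gpr35 (91.2 and 99.0) and Gpr45 (83.2 and 87.1).

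Transcription factors differed between families. Hox genes, which specify position along the body axis, had 14 of 39 genes (35.9%), 77.8% of the 18 called in both yolk sac lists. In the HoxC cluster 8 of 9 genes were yolk-sac-only and the remaining one was called in no list, whereas HoxA had 2 of 11, HoxB 2 of 10 and HoxD 2 of 9. Hoxc9 had percentiles of 90.7 in library 1 and 92.7 in library 2, Hoxc4 had 90.5 and 93.9, and Hoxc5 had 87.9 and 97.3. The peaks of Hoxc4 and Hoxc5 lay nearest to internal starts, 15461 and 46372 bp downstream of the 5′-most ones. Hoxc6 (61.1 and 86.2), Hoxc8 (59.9 and 53.3), Hoxc11 (54.8 and 42.4) and Hoxc10 (40.3 and 19.6) were lower. At equal length 9 of the 39 Hox genes (23.1%) were left.

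Other homeobox and paired box genes had 20 of 132 (15.2%) and 6 at equal length, with a median lower percentile of 28.4. Those of high rank included Pou2f3 (95.9 and 86.1), Meis3 (84.4 and 90.2) and Irx3 (91.1 and 74.9). Forkhead genes had 6 of 44 and 1 at equal length, and none exceeded percentile 43.6 in its lower list, which was that of Foxs1. In the bHLH list 5 of 59 were members, and all 5 met the rule at equal length, while 9 genes did without liver replicate 2. They included Hand1 (80.5 and 90.4), Msc (79.3 and 87.8), Hes2 (95.1 and 71.2) and Bhlhe41 (77.8 and 61.5). Nuclear receptors had 4 of 48, 9 with the higher-scoring 50% and 2 at equal length, with both oestrogen receptor genes, Esr2 (88.5 and 99.0) and Esr1 (77.6 and 64.6), and Nr2f1 (24.7 and 20.2) among them. Zinc finger proteins had 11 of 425 (2.59%), with 329 called in all 4 libraries, 21 without liver replicate 2, 31 with the higher-scoring 50% and 5 at equal length. GATA factors had 0 of 6, Sox and T-box genes had 1 of 35 (Eomes, 26.5 and 59.4), and olfactory and vomeronasal receptors had 1 of 1466 (0.0682%), with 1455 called in no list.

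Contractile genes had 5 of 68 members, 9 without either liver replicate or with the higher-scoring 50%, and 2 at equal length. Acta1 led, followed by Tnni1, a troponin of slow muscle (94.8 and 85.5), Myh11, the smooth muscle myosin (44.3 and 45.0), Synpo2l (40.8 and 10.6) and Tnnt2, a cardiac troponin (3.99 and 9.98). Cytochromes P450 had 6 of 100, 10 without yolk sac replicate 2 and 2 at equal length. They were led by Cyp11a1, the side-chain cleavage enzyme of steroid synthesis (88.5 and 92.9), and Cyp2s1 (74.3 and 60.3). The peak of Cyp11a1 lay nearest to an internal start, 8586 bp downstream of the 5′-most one. Conjugating and aldehyde-oxidising enzymes had 5 of 86, 8 and 9 without yolk sac replicates 1 and 2 and 1 at equal length, led by Aldh1l2 (92.6 and 88.2) and Gsta2 (50.5 and 53.3).

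Markers of the cell types of both tissues were read in the same lists. Of all 21951 coding genes, 13999 and 13702 were called in yolk sac libraries 1 and 2. Liver libraries 1 and 2 had 12306 and 12706, and 5.25% of coding genes were members. All 15 visceral endoderm markers were called in both yolk sac libraries, but 12 were also called in liver library 1 and 9 in library 2, and 3 were members (Amn, Cubn and Cldn6). Of 10 mesothelium markers, 7 were called in each yolk sac library, 0 in liver library 1 and 2 in liver library 2, and 6 were members. These were Krt19, Upk1b, Msln (48.6 and 40.3), Wt1 (20.5 and 50.4), Upk3b and Rspo1. Krt19 and Upk1b met the rule at equal length and the other 4 did not. Krt19 was also on the list of parietal endoderm markers, of which 10 of 10 were called in each yolk sac library and 8 and 9 in the liver libraries, with no other member. The peaks of Wt1 lay 35348 bp apart in the yolk sac libraries. Of 10 macrophage markers, 10 and 9 were called in the yolk sac libraries and 5 in each liver library, and Ctsk, C1qa, C1qb (54.2 and 38.5) and Adgre1 (48.1 and 33.1) were members.

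Mesenchyme (12 and 12 of 13 in yolk sac, 8 and 11 in liver), endothelium (12 and 12 of 12, 8 and 10) and smooth muscle (6 and 6 of 8, 2 and 5) markers each gave 1 member, Hand1, Emcn (57.3 and 46.3) and Myh11. Of 12 trophoblast markers 4 were called in each yolk sac library and 1 in each liver library. Hand1, Krt7 and Eomes were members, and the defining markers Tpbpa, Prl3d1, Prl2c2, Gcm1, Syna, Synb and Elf5 were called in no library. Of 9 decidua markers 5 and 6 were called in yolk sac and 2 and 4 in liver, and Esr1 was a member. All 9 erythroid markers were called in each liver library and 2 of them in each yolk sac library, and 0 were members. Of 10 hepatocyte markers 5 were called in each liver library and 4 in each yolk sac library, and 1, the fibrinogen gene Fgb (30.3 and 33.0), was a member although the protein is made by hepatocytes. The lists give calls and no summed levels, and the part of any cell type in the member set was not tested.

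Most members were marked near the 5′-most annotated start of the gene. The midpoint of the best peak lay a median of 69.5 bp downstream of the nearest annotated start. For 878 members (76.1%) this start was within 500 bp of the 5′-most start of the gene, and for 275 (23.9%) it was internal. The shares were 81.6% and 18.4% among the genes called in all 4 libraries. Internal starts are not pointed out for every gene named above. The 2 sets of members had like ranks, with median lower percentiles of 47.3 and 47.0. In yolk sac library 1, 66 members shared a peak with another coding gene, 40 of them with another member, so for these the peak cannot be given to 1 gene. For 32 members (2.78%) the best peaks of the yolk sac libraries did not overlap, and for 11 of them no promoter peak did, so the paired values of these genes belong to different regions. In 79 members (6.85%) both yolk sac lists had more than 1 promoter peak, against 13.2% of the genes called in all 4 libraries.

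Liver peaks were also looked for around the member genes. The nearest liver peak lay at a median of 24878 bp from a start, with a range from 505 to 3175776 bp. It was within 1000 bp for 67 members (5.81%), within 10 kb for 376 (32.6%) and within 100 kb for 931 (80.7%). For 911 members (79.0%) no liver peak lay inside the gene, and for 162 (14.1%) both liver lists had a peak inside it.

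Peaks outside promoter windows were counted within 50 kb of the starts. Around members there were on average 0.971 and 0.959 such peaks per gene in the liver libraries and 3.35 and 2.78 in the yolk sac libraries, a ratio of 3.17. The ratio was 2.08 around the genes called in all 4 libraries, 2.10 around genes called in none and 1.20 around liver-only genes. Both yolk sac libraries had more peaks than either liver library around 698 members (60.5%), where the share over all coding genes was 40.4%. The reverse held for 33 members (2.86%), against 5.45%. At equal list length the ratio was 1.34 around members and 0.774 around the genes called in all 4 libraries. These counts come from the same contrast as the rule, and neighbouring genes share peaks.

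The members with most yolk sac peaks around them were Lmntd1, whose yolk sac libraries had 17 and 13 and whose liver libraries had 1 and 2, and Lpar3, a receptor for lysophosphatidic acid, with 16 and 12 against 0 and 0. Rbm20, a splicing factor of muscle, had 16 and 12 against 9 and 8. Mlph, a melanosome transport protein, had 11 and 11 against 3 and 2, and Cdh23 had 11 and 11 against 4 and 5. The 5 were picked for these yolk sac counts, and more peaks in both yolk sac libraries were seen around 40.4% of all coding genes.

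**Figure D4:**
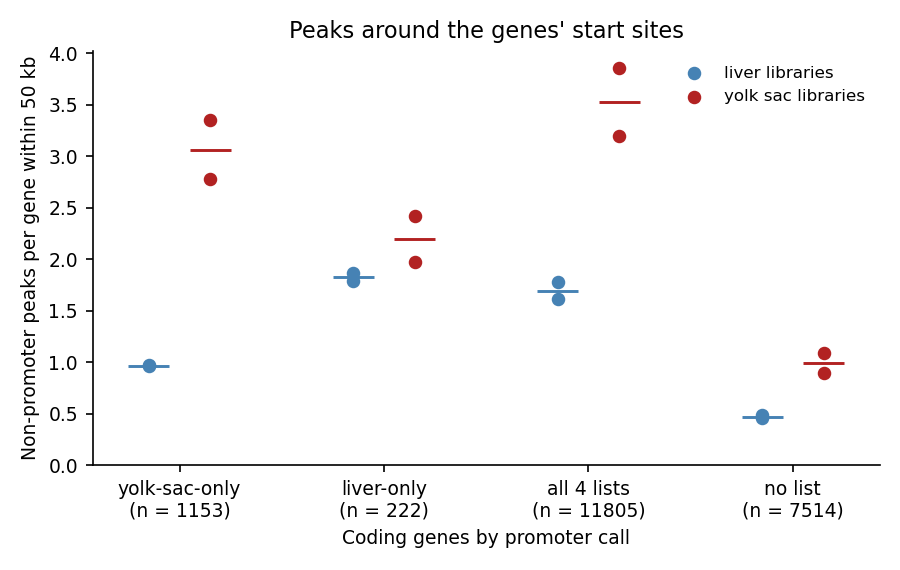
Mean number of peaks outside promoter windows within 50 kb of the starts of a gene (y axis), 1 point per library and a line at the mean of each tissue, for 4 classes of coding genes. Yolk-sac-only genes have 0.971 and 0.959 liver peaks and 3.35 and 2.78 yolk sac peaks per gene, with the lists as deposited.

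Member genes were sometimes neighbours. In the order of coding genes along the chromosomes, 216 members (18.7%) stood next to another member, in 81 runs of 2, 13 of 3, 2 of 4 and 1 of 7. The share for genes in random order was not computed, and neighbours that share a peak are called together. The 18.7% is therefore a description only. The run of 7 was the HoxC stretch of Hoxc11, Hoxc10, Hoxc5, Hoxc9, Hoxc8, Hoxc6 and Hoxc4 on chromosome 15, from 102954427 to 103036852 in GRCm38. The runs of 4 were Mpig6b, Ly6g6c, Ly6g6d and Ly6g6e on chromosome 17, and Gria4 with the inflammatory caspases Casp1, Casp4 and Casp12 on chromosome 9. The HoxC run included overlapping transcripts, and Hoxc5 and Hoxc10 each shared a peak with another coding gene. By chromosome, the share of members among coding genes ran from 3.51% on chromosome 7 to 7.52% on chromosome 15, and chromosome Y and the mitochondrial genome had 0.

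The members started from CpG-poor sequence more often than the genes called in all 4 libraries. In the first 200 transcribed bases of the transcript nearest the peak, 707 of 1149 members (61.5%, 95% Wilson interval 58.7 to 64.3%) had an observed-to-expected CpG ratio below 0.6. The share was 27.9% of the genes called in all 4 libraries, 81.4% of liver-only genes, 85.8% of genes called in none and 51.3% of all coding genes. For genes with no promoter peak in yolk sac library 1, the transcript with the 5′-most start was used instead. These include all liver-only genes and all genes called in none, so their shares are not from starts chosen by a peak. The median ratio was 0.477 in members. The interval covers counting error only. Among the 30 leading genes 21 were CpG-poor. The ranks of CpG-poor and other members were alike, with median lower percentiles of 46.7 and 48.7.

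**Figure D5:**
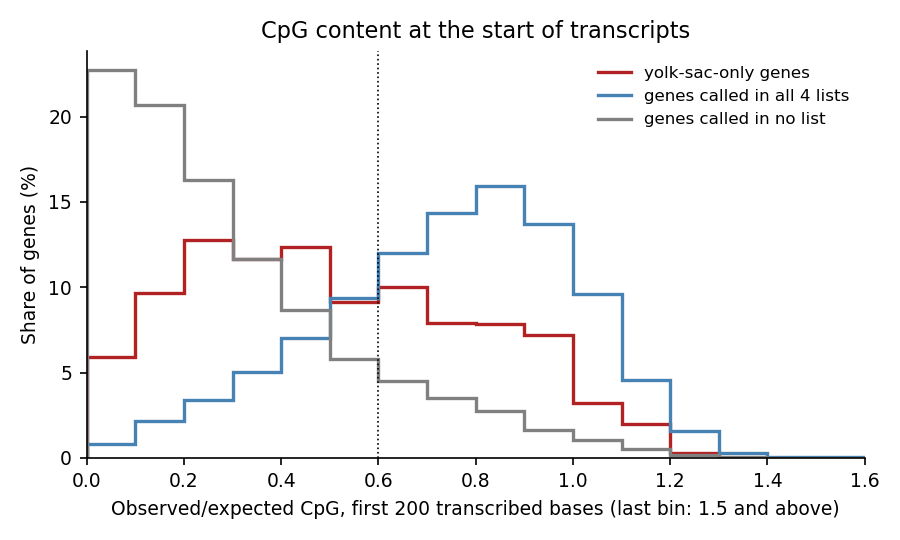
Share of genes (%) by the observed-to-expected CpG ratio of the first 200 transcribed bases, in bins of 0.1, for yolk-sac-only genes, genes called in all 4 lists and genes called in none. The dotted line is the limit of 0.6, below which 61.5%, 27.9% and 85.8% of the genes lie, and the members lie between the other classes.

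The RefSeq promoter table, with 250 bases before to 50 after a start, gave a sequence for 822 of the 1153 members (71.3%). This is under the 80% set as a minimum, so a check over all members from this table is void, and its values describe the matched genes only. Among these, 549 (66.8%) were CpG-poor, against 22.8% of the matched genes called in all 4 libraries and 49.4% of all matched coding genes. The entry used was the one nearest the best peak of yolk sac library 1. For genes with no promoter peak there, the first listed entry was used. The motifs were searched in both strands of these 300 bases, with TATAAA only on the strand of the gene 40 to 20 bases before the start. TATAAA was found in 3.53% of matched members, 1.23% of the genes called in all 4 libraries and 2.89% of all coding genes. The 29 members with it were led in rank by Ecm1, Cldn2, Trim63 and Adamtsl2.

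GGGCGG, the GC box of SP and KLF factors, was found in 42.3% of matched members, 68.1% of the genes called in all 4 libraries and 48.4% of all. CCAAT was found in 30.7%, 38.4% and 38.7%, and CCGGAAG, the ETS motif, in 5.60%, 19.8% and 12.4%. Matched liver-only promoters numbered 167, each the first listed entry of its gene and not chosen by a liver peak. Higher in members than in the genes called in all 4 libraries were the AP-1 motif TGACTCA (6.20% and 3.03%), the TEAD motif CATTCC (16.4% and 11.5%) and the forkhead motif TGTTTAC (3.89% and 2.39%). So were the GATA motif AGATAA (8.15% and 5.69%), the partial HNF1 motif GTTAAT (6.45% and 3.85%) and the partial HNF4 motif CAAAGTC (5.72% and 3.48%). The SOX and TCF motif AACAAAG (5.35% and 3.41%) and the homeobox motif TAATTA (3.41% and 2.08%) were likewise higher, and the E-box CACGTG was lower, with 8.15% and 10.6%. Liver-only promoters were above the members for the GATA (22.2%), TEAD (18.0%), HNF1 (8.98%), HNF4 (9.58%), SOX and TCF (7.19%), homeobox (6.59%), forkhead (4.19%) and TATA (4.79%) motifs. The AP-1 motif stood at 5.39% in them and at 7.03% in genes called in none. Over all coding genes the GATA motif stood at 9.58% and the homeobox motif at 4.52%, above the members. A match is a stretch of letters and says nothing on binding, and motif shares move with base composition, which differed between the classes.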

How the data were processed

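PRO-seq was run on 2 liver and 2 yolk sac libraries, each from tissue pooled from 6 embryos, per the labels. Nothing in the labels says whether the 2 pools of a tissue came from separate litters. Scores are those the authors deposited, kept without scaling. Per the submitters' processing notes, Bowtie2, bedtools and the mm10 build were used. Their role, the dREG version and its filters are not given in the sources used here. Peaks were matched to GENCODE M21 (GRCm38, the same assembly as mm10) by an overlap of at least 1 bp, with Python 3.11.15, numpy 2.4.6 and pandas 2.3.3. The read depth behind a peak is unknown, and no test was made because the rule used these calls. The matching was tested on simulated peaks, and 200 of 200 planted genes were recovered. The planted genes lay on chromosome 2 with no start of another coding gene nearby, so shared and neighbouring starts were not covered.

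Named genes were the 30 of highest rank (without predicted and receptor genes), up to 4 per family list with at least 3 members, marker genes, and the 5 lowest, widest, narrowest, nearest to a liver peak and richest in surrounding peaks, with the longest runs. Members of a list or run outside that rule are named without values, and some genes that meet it are not reported here. The members and lists were chosen with earlier results of these data known. Alternatives were other windows, midpoints, score limits, list lengths, flanks and CpG limits, and leaving out each library. The use of transcribed bases and of the first listed promoter entry was chosen after seeing the data.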

Additional observations from a re-analysis of the deposited data

How the results depend on the processing

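The number of yolk-sac-only genes, 1153 as reported, was 1941 with the higher-scoring 50% of each list and 572 with each list at the length of the shortest. It ranged from 1245 to 1642 when 1 library was left out, and all 1153 were kept each time, by construction, since fewer lists relax the rule. The median lower percentile, 47.1, ranged from 48.3 to 52.4 without 1 library. The CpG-poor share of matched promoters, 66.8%, was 54.7% with peak midpoints inside the window, 48.1% with the higher-scoring 50%, 57.4% with a ratio limit of 0.5 and 61.5% with transcribed bases, and ranged from 59.5% to 68.1% without 1 library, the lowest without liver replicate 2. The ratio of surrounding peaks, 3.17, was 2.16 with midpoints, 3.79 with the higher-scoring 50%, 1.34 at equal length, 3.61 within 20 kb and 2.78 within 100 kb, and ranged from 2.79 to 3.37 without 1 library. With midpoints the same ratio was 2.02 around the genes called in all 4 libraries. With the replicate number as a block the count was 1153, the same by construction. Read by replicate number, 1967 genes were called in yolk sac and not in liver in pair 1 and 1386 in pair 2, against 274 and 390 the other way, with no paired test. Of the 36 family lists with at least 3 members, 31 counts moved over 1.5 times at equal length, 14 with the higher-scoring 50%, 11 without liver replicate 2, 4 with midpoints, 3 without yolk sac replicate 2, and 1 each without liver replicate 1 and yolk sac replicate 1. The whole set also moved over 1.5 times at equal length, from 1153 to 572, and with the higher-scoring 50%, to 1941. A list that only followed the whole set would count as moved under these settings. Without liver replicate 2 the whole set had 1642 genes. Of 191 named genes, 79 met the rule under every setting. The depth is unknown, and calls at the score floor decide membership at its edge. The cause of these shifts was not tested.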
